A study of Mus musculus with 18 samples.

Results

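The left ventricle of mice on the day of birth, termed immediate postpartum (0PP), was compared with that of non-pregnant sedentary females in diestrus (NP/Sed). The 6 arrays with these labels, 3 per group, were chosen by their titles out of the 18 arrays of 6 groups in the series. Every mouse was a wild-type C57Bl/6 female of 3 to 4 months, hearts were washed free of blood before freezing, and each array carried pooled RNA from a few left ventricles, so the replicate is a pool and not a mouse. The other 4 groups, 3 arrays each, were mid-pregnancy (MP), late pregnancy (LP), and voluntary wheel running for 7 days (7EX) or 21 days (21EX). They served to estimate the spread between arrays, and as direct comparators where stated. Where the text gives an array a number, as in 0PP-2, the number is that of its title.

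The maternal heart enlarges reversibly during gestation, under a larger blood volume and high levels of oestrogen, progesterone and placental hormones, and it regresses after birth. At parturition the placenta is lost, the hormones fall within hours and blood returns to the maternal circulation, so ventricular filling and signalling change abruptly. Ventricular muscle answers stretch by raising natriuretic peptides, which promote sodium excretion and vasodilation, while its fibroblasts, endothelium and macrophages answer load and injury with matrix proteins, chemokines and proteases.

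The arrays (Affymetrix, whole mouse genome) measure transcripts with probe sets, groups of short oligonucleotides whose brightness was summarised by the authors as a log2 value. A difference of 1 is a doubling, and values are compared only within a probe set, because brightness also depends on the probes. Of 45037 probe sets tested, 34945 were assigned to 1 gene, covering 18193 genes. Each difference below is the 0PP mean minus the NP/Sed mean on the log2 scale ± the standard error of the limma fit over 18 arrays, with a p-value adjusted over all probe sets. A gene was termed called if any probe set assigned to it combined an adjusted p under 0.05 with a change of at least 75% (0.807 on the log2 scale). For gene lists, each gene was read at its brightest probe set only, the one with the highest mean over the 18 arrays, with the same p limit and no fold limit. The median log2 value of an array lay between 4.93 and 5.02, and the files give no detection calls, so dim probe sets cannot be separated from background.

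On the day of birth 44 genes were called, of which 30 were higher (0.165% of genes tested) and 14 were lower (0.077%) than in NP/Sed. The rises included wound-type and matrix-remodelling genes (Tnfrsf12a, Timp1, Thbs1, Vcan, Adamts1), and chemokines and adhesion molecules (Ccl6, Ccl9, Ppbp, Vcam1). They also included heart muscle genes known for their response to load (Nppb, Nmrk2) and the Z-disc gene Synpo2l. The difference ran from 0.82 for Slc39a6, a zinc transporter, to 1.98 for Car3. The 3 0PP arrays lay above the 3 NP/Sed arrays for 28 of the 30 genes, the exceptions being Ppbp and Fkbp5. All 14 falls were free of overlap. Over all probe sets, 10.5% lay wholly above and 10.6% wholly below. The calls rest on the same arrays, so the separation of called genes, here and below, is no separate support for them.

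The number of called genes depended on single arrays. It was 19 without NP/Sed-3, 26 without 0PP-2 and 28 without 0PP-3, and reached 65 without NP/Sed-1. Tnfrsf12a, Lyve1, Stbd1, Mapk4, Nppb, Nmrk2 and Gm19277 were called in each of the 18 alternative settings tried, and Nfkbiz, Hspa1b, Vcan and Atp8b1 in 17 of 18. At the brightest probe set, with no fold limit, 491 genes passed (2.7% of genes tested), 436 of them higher (2.4%) and 55 lower (0.302%). With the replicate number of the titles as a block over all 18 arrays, termed the replicate block, these counts were 289 and 28. The total of 491 became 85 without NP/Sed-3, 86 without 0PP-2, 133 without 0PP-3, 152 without NP/Sed-2, 280 without 0PP-1 and 795 without NP/Sed-1. Most of these changes were small, with a median of 0.44 among the rises and -0.39 among the falls, and 413 of the 436 rises were below the 75% limit. At any probe set, again with no fold limit, 559 (3.07%) were higher and 144 (0.792%) lower. The list counts below are to be read beside the 2.4% and 0.302% at the brightest probe set.

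**Figure D1:**
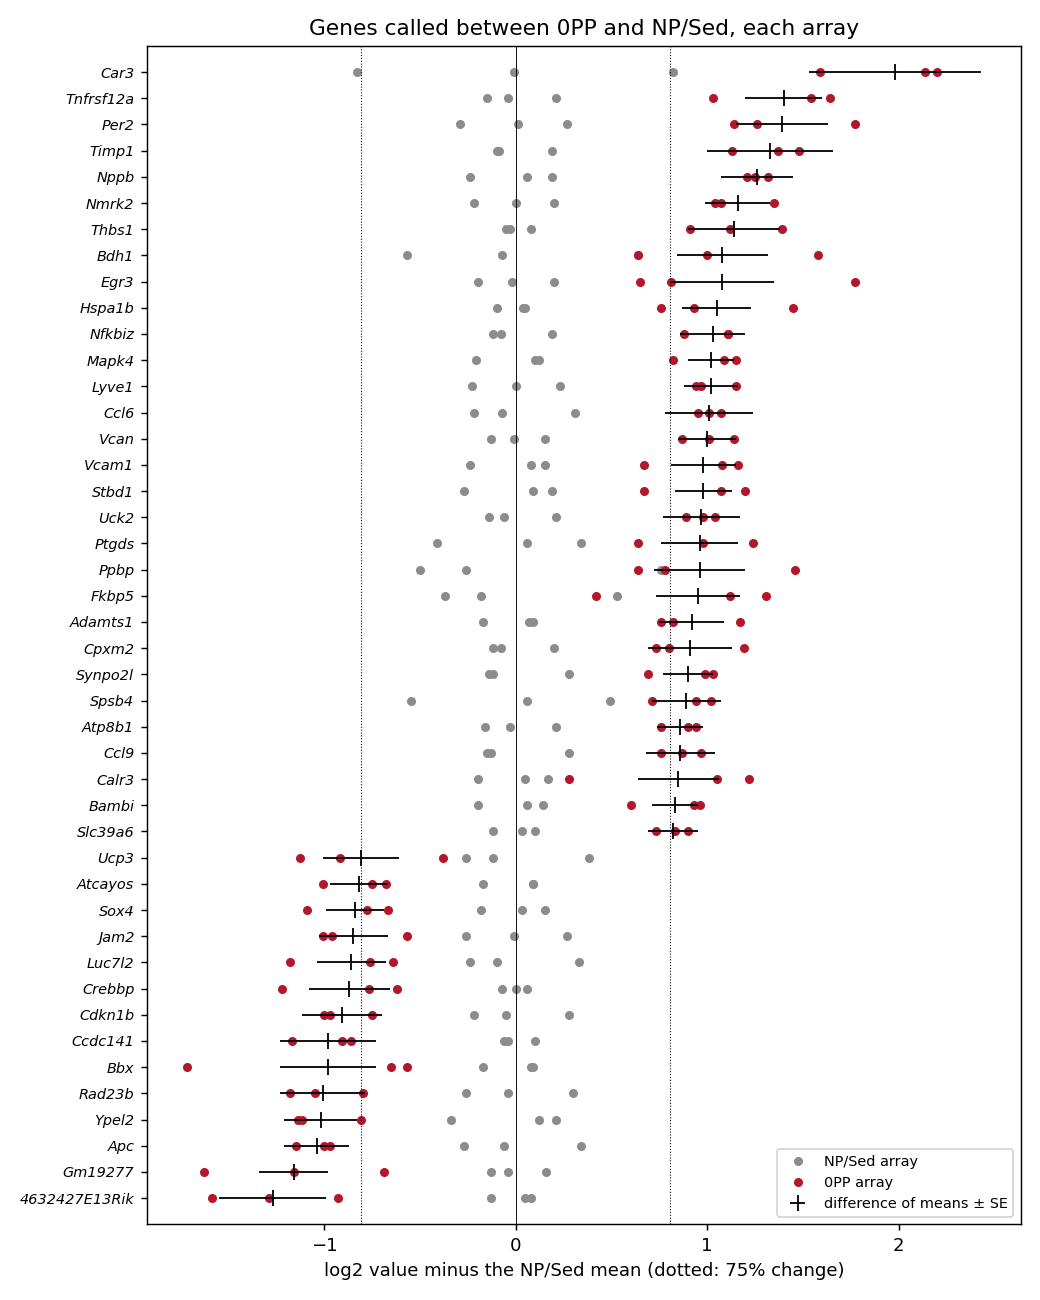
Log2 values of the 44 called genes (vertical axis) on each 0PP and NP/Sed array, drawn relative to the NP/Sed mean of the gene; bars give the difference of means ± standard error of the fit, and dotted lines the 75% limit. The rises run from 0.82 (Slc39a6) to 1.98 (Car3), with the NP/Sed arrays of Car3 spread most widely.

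Nppb, which encodes brain natriuretic peptide, rose 2.39-fold. On the 0PP arrays its log2 value was 12.94, 12.98 and 13.05, against 11.79, 11.49 and 11.92 in NP/Sed. The groups were apart by about 1 log2 unit, and the 0PP arrays were nearly identical (difference 1.26 ± 0.19, adjusted p = 0.00457 by limma). Nmrk2, the muscle kinase that makes NAD from nicotinamide riboside, was at 8.5, 8.19 and 8.22 in 0PP and at 7.15, 6.93 and 7.35 in NP/Sed. It too had no overlap (1.16 ± 0.17, adjusted p = 0.00435). Synpo2l, an actin-binding protein of the Z-disc, was at 8.26, 8.56 and 8.60 against 7.43, 7.85 and 7.45 at its called probe set, again with every 0PP array above every NP/Sed array (0.90 ± 0.13, adjusted p = 0.00435). Mapk4, an atypical MAP kinase, was at 6.79, 7.06 and 7.12 against 6.09, 5.76 and 6.07. Its smallest 0PP value exceeded its largest NP/Sed value by more than the range of either group, with a difference of 1.02 ± 0.12 (adjusted p = 0.00185).

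Of 17 measured genes that heart muscle is known to raise under load, 4 rose and none fell, with a median difference of 0.461, where the median of all genes was 0.011. Beside Nppb and Nmrk2 these were Flnc (0.35 ± 0.08, adjusted p = 0.0272) and Fhl1 (0.46 ± 0.11, adjusted p = 0.0343), which encode the actin crosslinker filamin C and a stretch-responsive LIM protein. With 1 array left out the count was between 2 (without NP/Sed-3, 0PP-2 or 0PP-3) and 5. Acta1, skeletal alpha-actin, was at 12.25, 11.71 and 11.84 in 0PP and 11.36, 10.76 and 11.21 in NP/Sed. These did not overlap, yet its difference of 0.82 ± 0.22 missed the limit (adjusted p = 0.0617). Atrial natriuretic peptide (Nppa) differed by 0.57 ± 0.26 (adjusted p = 0.247) and the atrial light chain Myl4 by 1.08 ± 0.50 (adjusted p = 0.268). Neither passed, and Nppa was highest on 0PP-1, at 12.51 against 11.61 and 11.69 on the other 0PP arrays.

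None of 8 atrial muscle markers passed, but their summed level (log2 of the sum of linear values) was 12.26 to 13.12 in 0PP and 11.77 to 12.21 in NP/Sed. Such a sum, here and below, is set mostly by the brightest members of a list. Sarcolipin (Sln) differed by 1.16 ± 0.69 (adjusted p = 0.401). The part of atrial tissue in these values was not tested. None of 14 cardiomyocyte markers passed, their median difference was -0.016, and their summed level was 17.89 to 17.90 in 0PP and 17.88 to 17.93 in NP/Sed. Among 21 sarcomere genes Myl1 alone passed. This fast skeletal muscle light chain was at 10.37, 10.63 and 10.79 in 0PP and at 9.87, 9.91 and 9.87 in NP/Sed, with no overlap (0.71 ± 0.12, adjusted p = 0.0081). It was also the 1 of 13 skeletal muscle markers that rose. The summed level of that list, 12.35 to 12.67 against 11.57 to 11.93, holds Acta1 and Myl1, while fast myosin Myh2 differed by -0.16 ± 0.09 (adjusted p = 0.366).

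The promoters of Nppb, Nmrk2 and Hspa1b are shown because these genes stood higher in 0PP than in LP as well as in NP/Sed and hold core or response motifs. Vcan and Synpo2l were also higher than in both groups, but their promoters matched none of the motifs searched. No promoter is shown for Mapk4, which was higher than in both as well. The motifs shown are thus not typical of the genes that rose. They are RefSeq sequences of build GRCm38.p6, from 250 bases before to 50 bases after the annotated start, read in the direction of transcription. Capitals mark matched motifs. In Nppb (chr4:147985650-147985949, plus strand) these are an M-CAT site at -105, here on the opposite strand, a GATA site at -84 and a TATA box at -31, counted from the start. In Nmrk2 (chr10:81201988-81202287, minus strand) a TATA box lies at -46, and in Hspa1b (chr17:34959189-34959488, minus strand) a heat shock element lies at -104.
Nppb: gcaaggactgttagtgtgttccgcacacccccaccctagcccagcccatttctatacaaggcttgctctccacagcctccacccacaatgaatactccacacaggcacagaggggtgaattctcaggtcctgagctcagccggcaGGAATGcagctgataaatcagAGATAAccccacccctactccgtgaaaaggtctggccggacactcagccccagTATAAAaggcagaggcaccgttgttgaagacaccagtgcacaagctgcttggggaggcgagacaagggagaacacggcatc
Nmrk2: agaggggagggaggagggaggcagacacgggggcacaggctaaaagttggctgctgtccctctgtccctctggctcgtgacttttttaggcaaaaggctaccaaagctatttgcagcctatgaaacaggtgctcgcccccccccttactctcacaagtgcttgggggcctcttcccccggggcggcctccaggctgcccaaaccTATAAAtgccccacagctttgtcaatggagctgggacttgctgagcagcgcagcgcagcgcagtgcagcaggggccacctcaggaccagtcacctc
Hspa1b: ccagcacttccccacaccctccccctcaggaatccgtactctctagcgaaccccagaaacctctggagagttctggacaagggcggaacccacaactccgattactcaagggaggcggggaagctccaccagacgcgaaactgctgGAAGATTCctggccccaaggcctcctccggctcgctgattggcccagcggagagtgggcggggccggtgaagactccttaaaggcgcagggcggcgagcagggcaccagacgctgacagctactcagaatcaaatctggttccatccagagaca

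Motifs were searched on both strands in all promoters of the table, and were chosen after the values were seen. Of 27018 genes with a promoter, the share was 15.7% for the TATA box, searched as TATAAA, 12.7% for the site of GATA factors, searched as AGATAA, 16.6% for the M-CAT site, searched as CATTCC, and 17.0% for the heat shock element, searched as GAANNTTC or as TTCNNGAA. For the others the share was 8.38% for the cAMP response element core (TGACGT), 8.98% for AP-1 (TGANTCA), 8.09% for the clock factors' E-box (CACGTG), 5.14% for the NF-kappa-B site and 1.81% for the serum response element. Promoters were listed for 19 of the 30 called rises. Of these, 5 held the TATA box, 4 the M-CAT site, 4 the heat shock element, 3 AP-1, 2 each GATA, NF-kappa-B and serum response elements, and 1 each the cAMP element and the E-box. A match is a description of these letters and not evidence that a factor was bound. Different motifs may overlap, but none did in the 3 promoters shown.

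Matrix genes of the wound type gave the highest share of rises among the 48 lists. The lists were chosen with earlier results of these data known, so this rank is a description and not independent support. Of 21 measured matricellular and wound-type genes 7 rose and none fell, a share of 33.3% where 2.4% of all genes rose, and the median difference was 0.48. The 3 0PP arrays lay above NP/Sed for 14 of the 21, where 15.2% of all genes did so at the brightest probe set. The 7 were Vcan, Tnfrsf12a, Cd44, Ccn4, Tnc, Thbs1 and Postn. The count was 4 without 0PP-2 and 8 without NP/Sed-1, and 6 with the replicate block, where Postn was lost (adjusted p = 0.0664).

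Tnfrsf12a, the receptor (Fn14) for the cytokine TWEAK, was called at both of its probe sets. At the one of smallest p it was at 9.53, 10.14 and 10.04 in 0PP and at 8.71, 8.35 and 8.46 in NP/Sed, which did not overlap (1.40 ± 0.20, adjusted p = 0.00435). Vcan, the hyaluronan-binding proteoglycan versican, was at 7.41, 7.54 and 7.27 against 6.39, 6.55 and 6.27. The groups were again apart (1.0 ± 0.15, adjusted p = 0.00435), although this was the only 1 of its 8 probe sets that was called. Thbs1, thrombospondin 1, an adhesive glycoprotein that activates TGF-beta, was at 5.43, 5.64 and 5.91 against 4.47, 4.60 and 4.49, a difference of 1.14 ± 0.24 (adjusted p = 0.0234) that was not called without NP/Sed-2, NP/Sed-3, 0PP-2 or 0PP-3. The hyaluronan receptor Cd44 differed by 0.77 ± 0.12 (adjusted p = 0.00587), the secreted Wnt target Ccn4 by 0.58 ± 0.10 (adjusted p = 0.0114), tenascin C (Tnc) by 0.68 ± 0.12 (adjusted p = 0.0124) and periostin (Postn) by 0.63 ± 0.16 (adjusted p = 0.0444).

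Matrix proteases and inhibitors rose in 2 of 16. Timp1, which inhibits matrix metalloproteinases, was at 7.20, 7.55 and 7.44 in 0PP and 5.98, 6.26 and 5.97 in NP/Sed (1.33 ± 0.33, adjusted p = 0.044). Adamts1, a protease that cleaves versican, was at 8.78, 8.37 and 8.43 against 7.68, 7.70 and 7.44 (0.92 ± 0.17, adjusted p = 0.0143). Neither gene overlapped between groups. Timp1 was not called in any fit with 1 array left out, after repeated quantile normalization, or with the 3′ minus 5′ signal of control transcripts, a measure of RNA integrity, as a covariate, and Adamts1 was not called without NP/Sed-3 or 0PP-1. The stromelysin Mmp3 differed by 0.82 ± 0.28 (adjusted p = 0.13).

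Of 25 fibrillar collagen and processing genes 5 rose and none fell (median 0.159). They were the fibril-initiating collagens Col5a1 (0.45 ± 0.10, adjusted p = 0.0237) and Col5a2 (0.45 ± 0.11, adjusted p = 0.0369), the microfibrillar collagen Col6a3 (0.35 ± 0.09, adjusted p = 0.044), and the prolyl hydroxylase subunits P4ha1 (0.63 ± 0.12, adjusted p = 0.0163) and P4ha2 (0.36 ± 0.09, adjusted p = 0.0455). The structural collagen Col3a1 was not among them. It was at 11.63, 11.62 and 11.28 in 0PP and 11.60, 11.31 and 11.49 in NP/Sed, with overlapping groups (0.04 ± 0.13, adjusted p = 0.905). Col15a1, which the study also names, differed by -0.13 ± 0.12 (adjusted p = 0.618). The count was 2 with the replicate block, 0 without NP/Sed-2, NP/Sed-3 or 0PP-2, and 7 without NP/Sed-1. Against NP/Sed the median of the 25 genes was -0.169 in LP, 0.201 in MP, 0.192 in 7EX and 0.238 in 21EX. In the basement membrane list 1 of 17 passed, the type IV collagen chain Col4a5 (0.40 ± 0.08, adjusted p = 0.0238), and none did without NP/Sed-2, NP/Sed-3, 0PP-2 or 0PP-3.

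Fibroblast markers rose in 3 of 13, among them the transcription factor Tcf21 (0.44 ± 0.10, adjusted p = 0.0261), Dpep1 (0.58 ± 0.14, adjusted p = 0.036) and Postn. With the replicate block 1 of 13 passed, and none did without NP/Sed-3, 0PP-2 or 0PP-3. The summed level of the list was 14.43 to 14.48 in 0PP and within the 14.27 to 14.50 of NP/Sed. Its median difference from NP/Sed was 0.136 in 0PP, -0.028 in LP, 0.194 in MP, 0.192 in 7EX and 0.239 in 21EX. In bulk tissue a change in the number of cells of a type and a change in RNA per cell cannot be told apart. The part of fibroblasts in the matrix rises was not tested.

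Among 23 chemokines 3 rose. Their median difference from NP/Sed was 0.163 in 0PP, 0.207 in LP, 0.271 in MP, 0.173 in 7EX and 0.227 in 21EX. The CC chemokine Ccl6 was at 8.70, 8.76 and 8.82 in 0PP and 8.06, 7.68 and 7.53 in NP/Sed, without overlap (1.01 ± 0.23, adjusted p = 0.0315). The related CC chemokine Ccl9 was at 8.08, 7.87 and 7.98 against 7.39, 6.98 and 6.96 (0.86 ± 0.18, adjusted p = 0.0212). Both genes separated the groups, but the NP/Sed arrays spread more (SD 0.27 and 0.24) than the 0PP arrays (SD 0.06 and 0.1). Ppbp, a platelet chemokine, was at 5.06, 5.88 and 5.20 against 5.18, 4.16 and 3.92, so that NP/Sed-1 lay above 0PP-1 (0.96 ± 0.24, adjusted p = 0.0445, and 0.0663 with the replicate block). None of the 3 passed without NP/Sed-2, NP/Sed-3, 0PP-2 or 0PP-3, and Ccl6 and Ccl9 were not called without 0PP-1 either.

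The monocyte attractants of the Ccl2 cluster were higher on every 0PP array but missed the limit. Ccl2 was at 6.30, 7.68 and 6.44 in 0PP and 5.70, 5.53 and 5.81 in NP/Sed, with 0PP-2 well above the rest (1.13 ± 0.37, adjusted p = 0.112). Ccl7 was at 6.20, 6.28 and 5.70 against 4.88, 4.93 and 4.63 (1.25 ± 0.36, adjusted p = 0.0773). Ccl12 differed by 1.37 ± 0.37 (adjusted p = 0.0611).

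Of 29 NF-kappa-B feedback and acute-phase genes 2 rose. Nfkbiz, a nuclear I-kappa-B protein induced by inflammatory signals, was at 6.01, 6.01 and 5.78 in 0PP and 5.09, 4.82 and 4.78 in NP/Sed (1.03 ± 0.17, adjusted p = 0.00813). Vcam1, the endothelial adhesion molecule for leukocytes, was at 8.40, 8.32 and 7.91 against 7.32, 7.39 and 7.00 (0.98 ± 0.17, adjusted p = 0.0117). Both were free of overlap, but 1 of the 29 passed without NP/Sed-3 or 0PP-2, where Vcam1 was not called. The oncostatin M receptor Osmr differed by 0.56 ± 0.17 (adjusted p = 0.0961) and Stat3 by 0.35 ± 0.17 (adjusted p = 0.29). None of 21 interferon-stimulated genes passed (median 0.113).

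Macrophage and monocyte markers rose in 5 of 20, with a median of 0.341. They were the lysosomal protein Cd68, at 6.79, 6.82 and 6.91 in 0PP and 6.06, 6.32 and 6.04 in NP/Sed (0.70 ± 0.12, adjusted p = 0.00839), the folate receptor Folr2 (0.46 ± 0.09, adjusted p = 0.0166), the complement components C1qb (0.61 ± 0.14, adjusted p = 0.0342) and C1qc (0.44 ± 0.10, adjusted p = 0.034), and the scavenger receptor Cd163 (0.45 ± 0.11, adjusted p = 0.0498). The 0PP arrays lay wholly above NP/Sed for 12 of the 20 and wholly below for 0, and the summed level was 12.66 to 12.76 against 12.27 to 12.51. Over all genes at the brightest probe set 15.2% lay wholly above and 8.35% wholly below. With the replicate block 2 passed, C1qb and C1qc narrowly missing the limit (adjusted p = 0.0513 and 0.0512), and the count was 1 without NP/Sed-3 or 0PP-2 and 10 without NP/Sed-1. Against NP/Sed the median of this list was 0.283 in LP, 0.478 in MP, 0.25 in 7EX and 0.352 in 21EX, so a higher level was not particular to 0PP. The part of macrophage content in the chemokine rises was not tested.

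Markers of other blood cells gave few calls. None of 12 neutrophil or 12 lymphocyte markers passed, with medians of -0.029 and -0.032. Of 6 platelet markers Ppbp rose and Gp1bb, a platelet adhesion receptor subunit, fell (-0.36 ± 0.08, adjusted p = 0.0246). Of 7 erythroid markers the haem synthesis enzyme Alas2 rose (0.60 ± 0.13, adjusted p = 0.0281). No gene of either list passed without NP/Sed-2, NP/Sed-3, 0PP-2 or 0PP-3. The summed levels of the platelet list were 9.78 to 9.95 in 0PP and 9.45 to 9.71 in NP/Sed.

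Endothelial markers rose in 4 of 15, namely endoglin (Eng, 0.45 ± 0.11, adjusted p = 0.0391), the transcription factor Sox18 (0.37 ± 0.09, adjusted p = 0.0424), von Willebrand factor (Vwf, 0.58 ± 0.14, adjusted p = 0.0444) and endomucin (Emcn, 0.35 ± 0.09, adjusted p = 0.0495). None of the 4 passed with the replicate block (adjusted p from 0.0531 to 0.0718), and none did when any array but NP/Sed-1 was left out. The median of the 15 against NP/Sed was 0.16 in 0PP, 0.026 in LP, 0.133 in MP, 0.166 in 7EX and 0.261 in 21EX. Lyve1, a hyaluronan receptor of lymphatic endothelium and of some tissue macrophages, was at 9.13, 8.95 and 8.92 in 0PP and 8.21, 7.98 and 7.75 in NP/Sed. The groups were clearly apart (1.02 ± 0.14, adjusted p = 0.00408), and it was the 1 of 6 lymphatic markers that passed. Prox1, which defines lymphatic identity, differed by -0.69 ± 0.23 (adjusted p = 0.123).

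Of 23 angiogenic factors and receptors 2 rose and 1 fell. The vasodilator peptide adrenomedullin (Adm) was at 6.65, 6.71 and 6.57 in 0PP and 6.20, 5.96 and 5.64 in NP/Sed (0.71 ± 0.14, adjusted p = 0.0159), and the vasoconstrictor endothelin 1 (Edn1) differed by 0.45 ± 0.09 (adjusted p = 0.0151). Angpt1, an endothelial-stabilising ligand, was lower, at 8.60, 8.06 and 8.23 against 8.78, 9.07 and 9.0. It had no overlap (-0.65 ± 0.16, adjusted p = 0.0458, and 0.0571 with the replicate block). None of the 23 passed in either direction without NP/Sed-3, 1 rise and no fall did without NP/Sed-2 or 0PP-2, and the fall was also lost without 0PP-3. None of 11 smooth muscle and pericyte markers passed.

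Chaperones of the cytosol and of the endoplasmic reticulum rose in part. Of 20 heat shock chaperones 4 rose and none fell (median 0.209), and of 22 endoplasmic reticulum stress genes 4 rose and none fell (median 0.239). Hspa1b, an inducible Hsp70, was at 6.59, 5.90 and 6.07 in 0PP and 5.18, 5.19 and 5.04 in NP/Sed at its called probe set. The 0PP arrays were all higher but spread more, with 0PP-1 highest (1.05 ± 0.18, adjusted p = 0.0109). At its brightest probe set the difference was 0.67 ± 0.14 (adjusted p = 0.0234). Hspa1a, a nearly identical copy whose probes may read both, differed by 0.61 ± 0.11 (adjusted p = 0.01), and Hsp90aa1, an inducible Hsp90, by 0.44 ± 0.09 (adjusted p = 0.0246). The related Hspa1l differed by 0.58 ± 0.15 (adjusted p = 0.0481, and 0.0674 with the replicate block). The heat shock count was 1 without NP/Sed-2 or 0PP-2 and 7 without NP/Sed-1.

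The endoplasmic reticulum genes were the disulphide isomerase Pdia4, at 8.02, 7.82 and 8.16 in 0PP and 7.5, 7.44 and 7.46 in NP/Sed (0.53 ± 0.09, adjusted p = 0.00839), the secreted stress protein Manf (0.59 ± 0.11, adjusted p = 0.0168), the pro-apoptotic transcription factor Ddit3 (0.46 ± 0.10, adjusted p = 0.0299) and Creld2 (0.46 ± 0.11, adjusted p = 0.0417). The 0PP arrays lay above NP/Sed for 12 of the 22 genes of this list, where 15.2% of all genes did so at the brightest probe set. The count was 1 without NP/Sed-2 or 0PP-1.

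Immediate early genes, the transcription factors and regulators that respond within minutes to stimulation, rose in 3 of 26 at the brightest probe set. These were Ier5 (0.68 ± 0.14, adjusted p = 0.0207), Egr2 (0.59 ± 0.12, adjusted p = 0.0237) and the small Maf factor Maff (0.68 ± 0.17, adjusted p = 0.0466). None passed without 0PP-1 or 0PP-2. Egr3 was called at a dim probe set at 5.04, 6.00 and 4.88 against 4.03, 4.43 and 4.21 (1.08 ± 0.27, adjusted p = 0.0473, and 0.0702 with the replicate block), whereas its brightest probe set differed by -0.28 ± 0.09. The direction for Egr3 was thus set by the probe set.

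Growth and protein synthesis genes rose in a few members each. Of 26 Myc and ribosome biogenesis genes 4 rose, led by Rrp12 (0.54 ± 0.10, adjusted p = 0.0173), with Wdr12, Ddx21 and Gnl3 between 0.33 and 0.40. Of 25 translation factors and tRNA synthetases 3 rose, namely Eef1e1 (0.42 ± 0.08, adjusted p = 0.0131), Gars (0.30 ± 0.07, adjusted p = 0.0289) and Mars1 (0.34 ± 0.08, adjusted p = 0.0297). Of 32 cytoplasmic actin and microtubule genes 3 rose, which were Synpo2l, the actin-binding Tagln2 (0.46 ± 0.11, adjusted p = 0.0339) and the tubulin Tuba8 (0.41 ± 0.10, adjusted p = 0.0468). With the replicate block Synpo2l alone of these 3 passed. None of the ribosome biogenesis genes passed without NP/Sed-3, 0PP-2 or 0PP-3, and none of the translation genes without 0PP-2.

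Protein breakdown and cell survival genes were mixed. None of 36 proteasome subunits passed (median 0.09). Among 21 atrophy and ubiquitin ligase genes Bnip3, a mitochondrial mitophagy receptor, rose from 11.59, 11.27 and 11.27 in NP/Sed to 11.97, 12.13 and 12.15 in 0PP (0.71 ± 0.11, adjusted p = 0.00513), and the sarcomeric ligase Trim54 differed by 0.39 ± 0.10 (adjusted p = 0.0444, and 0.0651 with the replicate block). The muscle ubiquitin ligase Fbxo32 overlapped between groups (-0.08 ± 0.11, adjusted p = 0.772). Of 22 apoptosis regulators the apoptosome protein Apaf1 rose (0.53 ± 0.10, adjusted p = 0.0136), while the death-promoting Bcl2l11 (-0.58 ± 0.13, adjusted p = 0.0327) and the transcription regulator Bclaf1 (-0.61 ± 0.13, adjusted p = 0.0289) fell. Both falls were lost without NP/Sed-2, NP/Sed-3 or any single 0PP array, and the rise without NP/Sed-3. The inhibitors of apoptosis Birc6 (0.04 ± 0.10, adjusted p = 0.875) and Xiap (0.03 ± 0.09, adjusted p = 0.902) overlapped between groups, as did the ubiquitin ligase Nedd4 (0.01 ± 0.10, adjusted p = 0.957). These are values of the brightest probe set only. The study lists Nedd4 among its largest 0PP falls, from several probe sets. Of 25 cell division genes the replication helicase subunit Mcm6 rose (0.58 ± 0.13, adjusted p = 0.0359, and 0.0544 with the replicate block), and no gene of that list passed without NP/Sed-2, NP/Sed-3, 0PP-1 or 0PP-2. The share of rises in that list was 4%, near the 2.4% of all genes.

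Energy metabolism genes were largely without calls. None of 32 respiratory chain genes passed (median -0.006). Of 28 fatty acid genes the beta-oxidation enzyme Decr1 rose (0.34 ± 0.07, adjusted p = 0.024) and the mitochondrial uncoupling protein Ucp3, a fasting-responsive fatty acid target gene, fell. Ucp3 was at 7.53, 7.32 and 8.07 in 0PP and 8.19, 8.33 and 8.83 in NP/Sed, apart by a small margin (-0.81 ± 0.20, adjusted p = 0.044, and 0.0512 with the replicate block). No fatty acid gene passed in either direction without NP/Sed-2, NP/Sed-3 or 0PP-2, and Ucp3 was not called without 0PP-1 either. Of 22 glucose genes the phosphofructokinase Pfkp rose (0.58 ± 0.10, adjusted p = 0.0109), and none did without NP/Sed-3. Rises made up 3.57% of the fatty acid list and 4.55% of the glucose list, near the 2.4% of all genes. None of 4 ketone body enzymes passed at the brightest probe set. Bdh1, which interconverts the ketone bodies, was called at its dimmer probe set, at 7.28, 8.22 and 7.64 against 7.28, 6.57 and 6.07, where 0PP-1 and NP/Sed-1 had the same value to 2 decimals (1.08 ± 0.24, adjusted p = 0.0289). Its brightest probe set differed by 0.49 ± 0.18 (adjusted p = 0.159).

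Car3, a carbonic anhydrase abundant in fat, had the widest change among genes with an assigned probe set. It was at 8.18, 8.79 and 8.73 in 0PP and at 5.76, 7.41 and 6.58 in NP/Sed, with no overlap but a large spread among the controls (1.98 ± 0.45, adjusted p = 0.0309). It was not called without NP/Sed-1, NP/Sed-3, 0PP-2 or 0PP-3, or with the 3′ minus 5′ covariate. It was the 1 of 17 adipocyte markers that rose, and adiponectin (Adipoq), which defines adipocytes, was at 5.07, 5.50 and 5.57 against 3.27, 4.22 and 3.87 (1.60 ± 0.43, adjusted p = 0.0587). The summed level of the list was 15.08 to 15.12 in 0PP and 15.06 to 15.10 in NP/Sed. Much brighter members set this sum, so it can stay level while Car3 and Adipoq, with 0PP means of 8.57 and 5.38, change. The part of adherent fat in the Car3 value was not tested.

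Hormone-linked genes showed single calls. Fkbp5, a chaperone of steroid receptors that glucocorticoids induce, was at 8.03, 7.14 and 7.84 in 0PP and 7.25, 6.54 and 6.35 in NP/Sed, with NP/Sed-1 above 0PP-2 (0.95 ± 0.22, adjusted p = 0.0355). It was the 1 of 20 glucocorticoid-responsive genes that rose, and was not called without NP/Sed-2, NP/Sed-3, 0PP-1 or 0PP-3. The metallothionein Mt2 was at 10.29, 10.73 and 10.67 against 9.61, 9.50 and 9.14 (1.14 ± 0.36, adjusted p = 0.1). None of 16 receptors for hormones of pregnancy passed (median -0.072). Of 23 steroid- and drug-metabolizing genes 3 rose, which were Ptgds, the prostaglandin D synthase, at 12.78, 12.44 and 13.04 against 12.14, 11.86 and 11.39 (0.96 ± 0.20, adjusted p = 0.0246), the cytochrome Cyp4b1 (0.55 ± 0.12, adjusted p = 0.0268) and the epoxide hydrolase Ephx1 (0.48 ± 0.11, adjusted p = 0.0331). None of these passed without NP/Sed-2, NP/Sed-3 or 0PP-3. Of 20 antioxidant genes the peroxidase Gpx1 rose (0.36 ± 0.08, adjusted p = 0.0264), and none did without NP/Sed-3, 0PP-2 or 0PP-3. The antioxidant share of rises, 5%, was near the 2.4% of all genes.

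None of 18 circadian clock genes passed at the brightest probe set (median 0.254). Per2, a repressor of the clock, was called at another probe set, at 6.27, 5.64 and 5.76 in 0PP and 4.51, 4.77 and 4.21 in NP/Sed (1.39 ± 0.24, adjusted p = 0.0106), while its brightest probe set differed by 0.34 ± 0.16 (adjusted p = 0.269). The hour of collection is not in the labels, so its part in this difference was not tested. Excitability genes gave no calls, with none of 16 potassium channels and none of 17 calcium handling and sodium channel genes past the limit. None of 22 insulin-like growth factor pathway genes, 25 splicing factors, 7 neural or 9 mesothelial markers passed either. Prg4, a lubricating proteoglycan of serous surfaces in the mesothelial list, was at 6.66, 7.74 and 7.65 in 0PP and 6.60, 6.61 and 6.40 in NP/Sed (0.81 ± 0.31, adjusted p = 0.169).

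**Figure D2:**
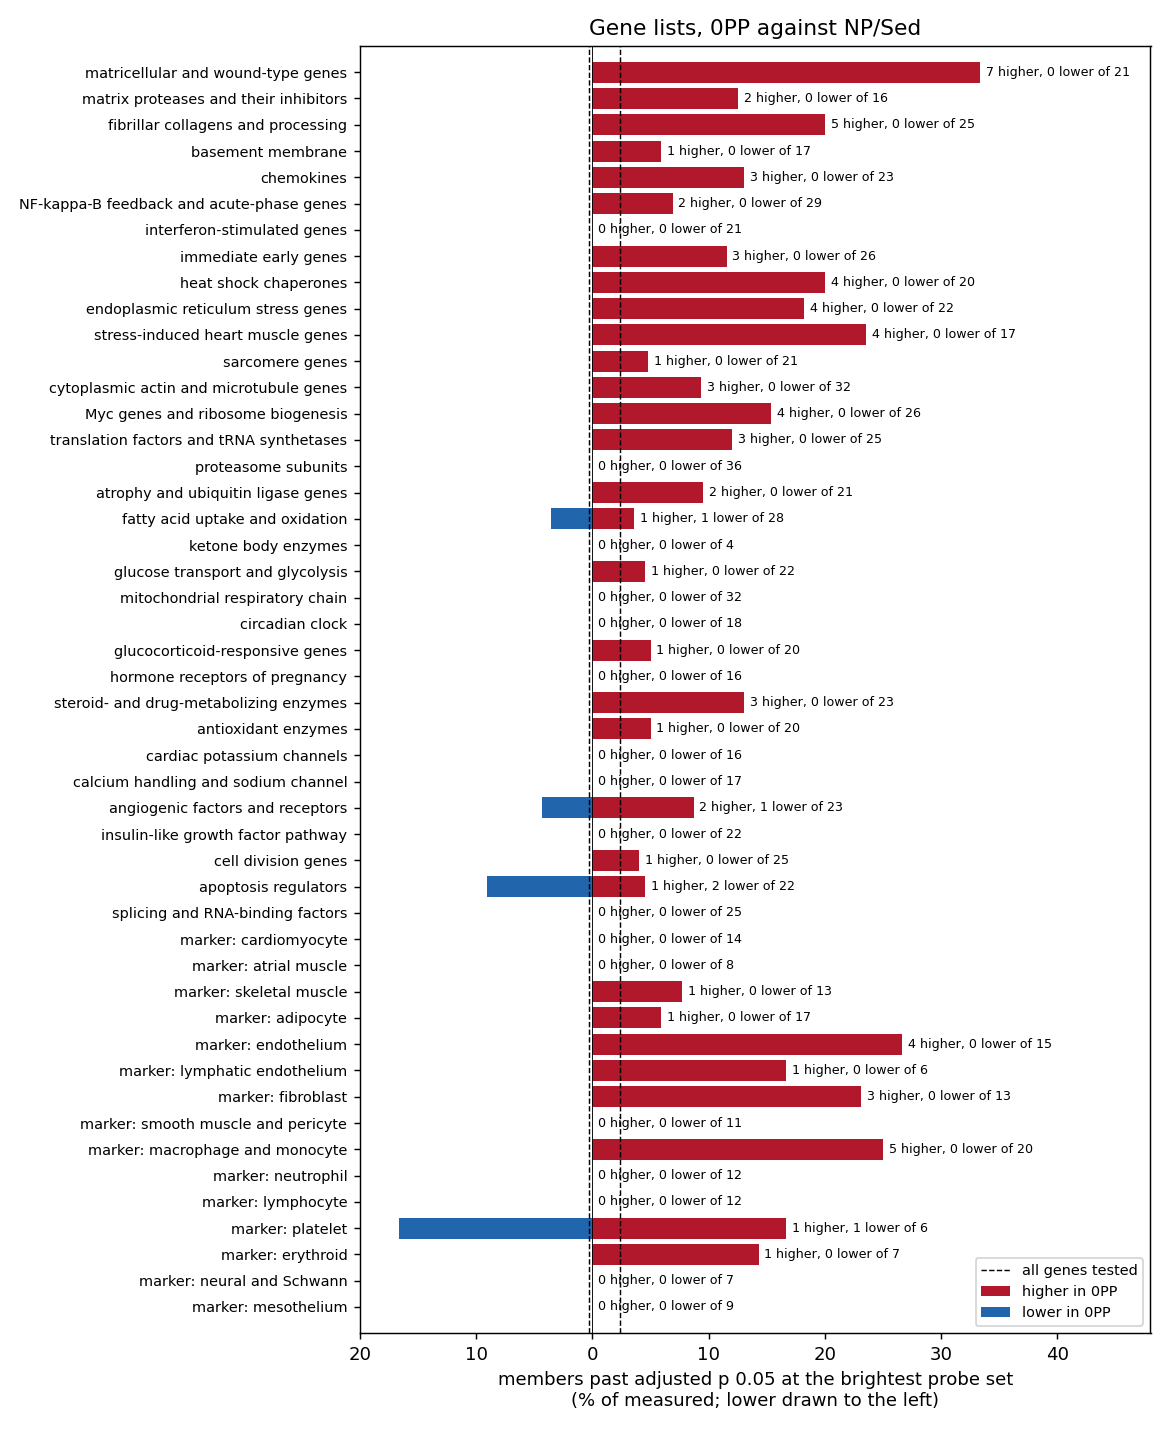
Share of the measured members of 48 gene lists (vertical axis) that were higher (right) or lower (left) in 0PP at adjusted p under 0.05 at the brightest probe set, with counts printed beside the bars and dashed lines at the shares of all genes, 2.4% and 0.302%. The matricellular list reaches 33.3%, and the cardiomyocyte, respiratory chain and proteasome lists have no bar.

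The 14 called falls rested mostly on probe sets that were not the brightest of their gene. The 18-array mean was under 5 for 6 of the 14 falls and 4 of the 30 rises. At the brightest probe set of the gene 3 of the 14 falls were called, against 23 of the 30 rises, and for 8 of the 14 the brightest probe set was within 0.2 of no difference. The 3 were Ucp3, the uncharacterised transcript Gm19277 and Atcayos, a transcript named for its antisense position to another gene. Gm19277 was at 6.35, 5.41 and 5.88 in 0PP and 6.91, 7.20 and 7.00 in NP/Sed, without overlap (-1.16 ± 0.18, adjusted p = 0.00598), and it has 1 probe set. Atcayos was at 8.13, 8.20 and 7.87 against 8.71, 8.97 and 8.97 (-0.82 ± 0.15, adjusted p = 0.0138).

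The Wnt pathway tumour suppressor Apc was at 4.84, 4.81 and 4.66 in 0PP and 5.75, 6.15 and 5.54 in NP/Sed at its called probe set (-1.04 ± 0.17, adjusted p = 0.00623), but its brightest probe set differed by 0.40 in the other direction (adjusted p = 0.0933). The DNA repair factor Rad23b also turned, from -1.01 ± 0.22 (adjusted p = 0.0254) to 0.16 (adjusted p = 0.313). The cell cycle inhibitor Cdkn1b was at -0.91 ± 0.21 (adjusted p = 0.037) against -0.17 at the brightest probe set, and the acetyltransferase Crebbp at -0.87 ± 0.21 (adjusted p = 0.0402) against -0.30. The called falls of 4632427E13Rik, Ypel2, Bbx, Ccdc141, the splicing factor Luc7l2, the junction molecule Jam2 and the transcription factor Sox4 ran from -1.27 to -0.84, and their brightest probe sets from -0.44 to -0.04. Ccdc141 was not called with the replicate block (adjusted p = 0.0661). The microtubule anchor Clasp1 was not called but fell at its brightest probe set, from 12.27, 12.18 and 12.16 to 11.83, 11.76 and 11.96 (-0.35 ± 0.07, adjusted p = 0.0172). At their brightest probe sets the trafficking regulators Gbf1 (-0.18 ± 0.08, adjusted p = 0.269) and Ralgapa1 (0.16 ± 0.09, adjusted p = 0.34) did not pass. The study lists Clasp1, Gbf1 and Ralgapa1 among its largest 0PP falls, each from several probe sets. It also reports Ralgapa1 as significantly lower in 0PP by quantitative RT-PCR, which the brightest probe set alone does not address.

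**Figure D3:**
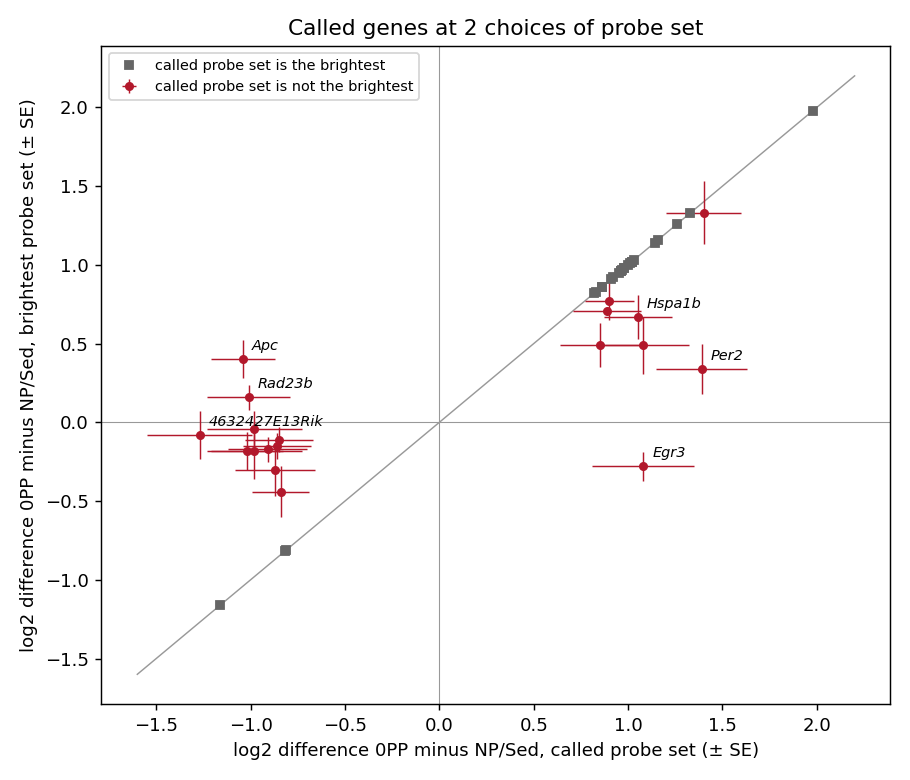
Log2 difference 0PP minus NP/Sed of the 44 called genes at the called probe set (horizontal) and at the brightest probe set of the gene (vertical), each ± standard error; grey squares are genes whose called probe set is the brightest. Apc, Rad23b and Egr3 lie on opposite sides of 0 on the 2 axes.

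The remaining called rises were the glycogen-binding Stbd1, at 7.54, 7.41 and 7.01 against 6.43, 6.53 and 6.07 (0.98 ± 0.15, adjusted p = 0.0044), the pyrimidine salvage kinase Uck2, at 8.31, 8.22 and 8.37 against 7.54, 7.27 and 7.19 (0.97 ± 0.20, adjusted p = 0.0208), and Bambi, a TGF-beta pseudoreceptor, at 8.28, 8.61 and 8.64 against 7.82, 7.74 and 7.48 (0.83 ± 0.12, adjusted p = 0.00435). None of the 3 overlapped. The phospholipid flippase Atp8b1 differed by 0.86 ± 0.12 (adjusted p = 0.00435), Slc39a6 by 0.82 ± 0.13 (adjusted p = 0.00587), Cpxm2 by 0.91 ± 0.22 (adjusted p = 0.0396), Spsb4 by 0.89 ± 0.18 (adjusted p = 0.0186) and Calr3 by 0.85 ± 0.21 (adjusted p = 0.044). Cpxm2 and Calr3 were not called with the replicate block. At their brightest probe sets Spsb4 (0.71, adjusted p = 0.0368) and Calr3 (0.49, adjusted p = 0.0713) were not called.

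Whether a called change set 0PP apart from the other 4 groups was read from direct contrasts within the same fit, which share the 0PP arrays with the call. Over all probe sets 0.566% were higher in 0PP than in LP, 0.331% than in MP, 0.291% than in 7EX and 0.171% than in 21EX. Of the 30 called rises 6 were also higher than LP, 7 than MP, 7 than 7EX and 6 than 21EX. Nmrk2, Mapk4 and Synpo2l were higher than in all 4, and 19 of the 30 were higher than in none of them. Of the 14 falls 1 each was lower than in LP, MP, 7EX and 21EX (lower in 0.318%, 0.213%, 0.231% and 0.167% of probe sets), and 12 differed from none.

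Nmrk2 had the widest margin of the 3. Its mean was 8.30 in 0PP and between 6.90 (MP) and 7.15 (NP/Sed) elsewhere, with differences of 1.23 ± 0.17 from LP (adjusted p = 0.00176), 1.40 ± 0.17 from MP (adjusted p = 0.00549), 1.35 ± 0.17 from 7EX (adjusted p = 0.00129) and 1.21 ± 0.17 from 21EX (adjusted p = 0.00421). Mapk4 exceeded the other 4 groups by 0.56 to 0.70 (adjusted p from 0.014 to 0.0477) and Synpo2l by 0.61 to 0.65 (adjusted p from 0.0239 to 0.0446). The count of 3 was 0 with the 3′ minus 5′ covariate, 1 with the replicate block and 1 after repeated quantile normalization. It was 1 without NP/Sed-3 or any single 0PP array, and 2 at the brightest probe set only.

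Nppb stood above LP by 1.23 ± 0.19 (adjusted p = 0.00342) and above MP by 0.92 ± 0.19 (adjusted p = 0.0387). Its difference from 7EX, 0.51 ± 0.19 (adjusted p = 0.281), and from 21EX, 0.75 ± 0.19 (adjusted p = 0.102), did not pass. Vcan differed from LP by 1.05 ± 0.15 (adjusted p = 0.00177), and from MP by 0.53 ± 0.15 (adjusted p = 0.0996). Hspa1b was higher than in LP, MP and 7EX, with 0.55 ± 0.18 against 21EX (adjusted p = 0.23).

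Ucp3, among the falls, was lower than in LP (-1.34 ± 0.20, adjusted p = 0.00263). The remaining called genes did not differ from LP past the limit. Lyve1 differed from LP by 0.10 ± 0.14 (adjusted p = 0.873) and from MP by 0.05 ± 0.14 (adjusted p = 0.898), but from 7EX by 0.77 ± 0.14 (adjusted p = 0.0161). Fkbp5 had a mean of 8.26 in LP and 7.67 in 0PP (-0.59 ± 0.22, adjusted p = 0.33). Per2 differed from LP by -0.14 ± 0.24 (adjusted p = 0.912), whereas both exercise groups lay below 0PP, 7EX at a distance of 1.97 ± 0.24 (adjusted p = 0.00129) and 21EX of 2.0 ± 0.24 (adjusted p = 0.00205). A p that misses the limit does not show that levels were equal.

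**Figure D4:**
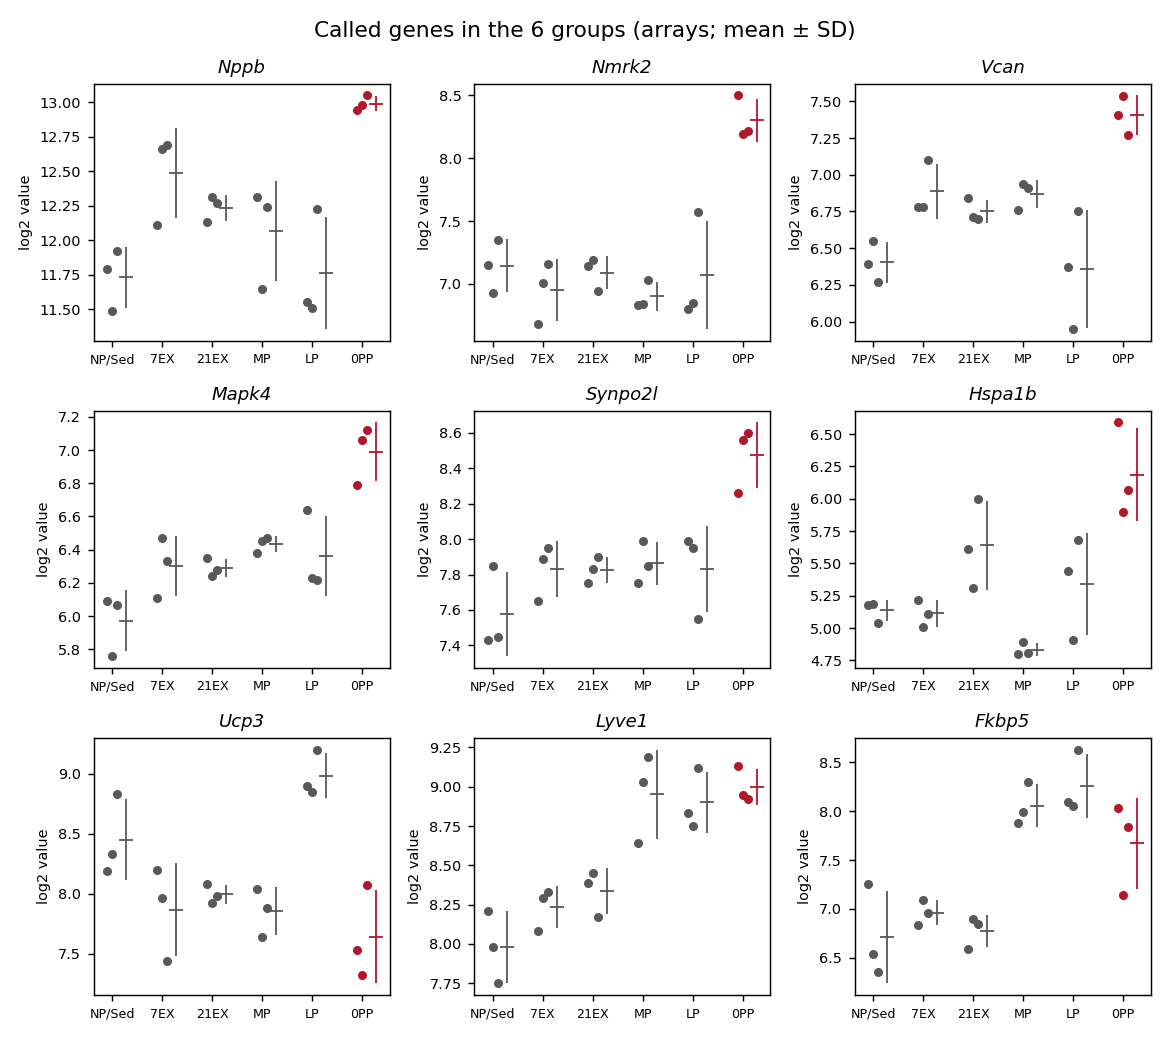
Log2 values of 9 called genes on each array of the 6 groups, with the group mean ± SD (n = 3 arrays) beside the points and 0PP in red; each vertical axis has its own range. Nmrk2 has means of 6.90 to 7.15 outside 0PP and 8.30 in it, Ucp3 is highest in LP at 8.98, and Lyve1 is near 9.0 in 0PP and 8.90 in LP.

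The array's own controls of RNA integrity overlapped between the groups. The difference between the 3′ and 5′ probe sets of beta-actin was 1.28 to 1.32 in 0PP and 1.11 to 1.36 in NP/Sed, and that of Gapdh -0.01 to 0.05 against -0.07 to 0.11. With this measure as a covariate 34 genes were called, 27 higher and 7 lower.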

How the data were processed

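Left ventricular RNA pools were hybridised to Affymetrix whole-genome mouse arrays. The authors summarised the scans with RMA at its default options, and the deposited table holds log2 values, used here without further scaling. Of 45101 probe sets 64 controls were left out. Gene names came from the platform annotation updated through RefSeq, with 932 probe sets of several genes and 9160 of none. All 18 arrays in 6 groups were fitted with limma 3.58.1 (lmFit and eBayes, two-sided, R 4.3.3), giving 12 residual and 6.45 prior degrees of freedom, with Benjamini-Hochberg adjustment over 45037 probe sets. P-values measure the spread between pools. No column of other samples was found.

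The fit was tested on simulated data before use. Named genes were those the study names for 0PP, the 15 largest called rises and falls without overlap, and up to 4 members of smallest p per list. The other called genes, Tnc, P4ha2, Cd163 and those under other observations were named after their values were seen. The gene lists (48, with 901 of 979 entries measured) and the comparison itself were chosen with earlier results of these data known. Same-numbered 0PP and NP/Sed arrays deviated together from their group means (correlations 0.127, 0.117 and 0.179 across probe sets), so the number was treated as a pairing. This rests on the data and not on a label, and no other pair of groups met it. The alternatives were the study's Cyber-T test at a posterior probability of 0.95, other scalings, filters, probe set rules, fits and left-out arrays.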

Additional observations from a re-analysis of the deposited data

Results flagged for a closer look

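In 7 called genes the change from NP/Sed differed between 0PP and LP by a direct test of 0PP minus LP in the same limma fit. The difference was -1.34 ± 0.20 for Ucp3 (adjusted p = 0.00263), whose mean was 8.45 in NP/Sed, 8.98 in LP and 7.64 in 0PP. It was 1.23 ± 0.19 for Nppb (adjusted p = 0.00342), 1.23 ± 0.17 for Nmrk2 (adjusted p = 0.00176) and 1.05 ± 0.15 for Vcan (adjusted p = 0.00177). The LP and NP/Sed means of these 3 genes were 11.76 and 11.73, 7.07 and 7.15, and 6.36 and 6.40. Hspa1b differed by 0.85 ± 0.18 (adjusted p = 0.0347), Mapk4 by 0.63 ± 0.12 (adjusted p = 0.0181) and Synpo2l by 0.64 ± 0.13 (adjusted p = 0.0239). Groups of 3 arrays are too small for a search for single outlying arrays.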

How the results depend on the processing

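The count of 44 called genes became 702 without the fold limit (559 higher, 144 lower, 1 gene in both), 76 by Cyber-T (44 and 32), 17 with the probe sets of a gene averaged (16 and 1), 26 at the brightest probe set only (23 and 3) and 73 in a fit of the 6 arrays with the replicate block, which was added after the data were seen (41 and 32). Leaving out 1 array gave 19 to 65. Median centring gave 60 (51 and 9), moving the share of rises from 68.2% to 85.0%. The 491 genes past the limit at the brightest probe set became 169 in a fit of the 6 arrays alone, 918 with a mean of at least 5 required, 305 after repeated quantile normalization (78.4% rises, against 88.8%), 965 after median centring, 317 with the replicate block, and 85 to 795 with 1 array left out. The 3 genes differing from all 4 other groups became 1 after quantile normalization, 1 with the replicate block, 0 with the 3′ to 5′ covariate, and 1 to 3 with 1 array left out. At the brightest probe set Apc (0.40), Rad23b (0.16) and Egr3 (-0.28) turned direction. The causes were not tested. The count of 3 could not be computed by Cyber-T or in fits of 6 arrays. The number of arrays limits precision, and dim values have no detection calls.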

Other observations

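Outside the 48 lists and the genes the study names, 412 genes passed the adjusted limit at the brightest probe set by limma, 363 higher and 49 lower in 0PP. Those below were picked after their values were seen. Among the rises were the leukocyte integrin chain Itgb2 (0.69 ± 0.15, adjusted p = 0.0272), the phosphatase Ptprc that marks haematopoietic cells (0.63 ± 0.14, adjusted p = 0.0289), and the actin regulators Coro1a (0.68 ± 0.17, adjusted p = 0.0444), Lcp1 (0.75 ± 0.15, adjusted p = 0.0203) and Capg (0.80 ± 0.11, adjusted p = 0.00422). Of the fixed marker lists, 0 of 12 neutrophil and 0 of 12 lymphocyte markers passed, with medians of -0.029 and -0.032. Npr3, the clearance receptor of natriuretic peptides, was at 7.12, 6.93 and 6.82 in 0PP and 6.13, 6.54 and 5.93 in NP/Sed (0.76 ± 0.16, adjusted p = 0.0221). The prostaglandin enzymes Ptgs2 (0.73 ± 0.14, adjusted p = 0.0187) and Ptgis (0.69 ± 0.14, adjusted p = 0.0185) were higher, Ptgs2 at a dim probe set.

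The oxygen-sensing prolyl hydroxylase Egln3 was at 9.72, 10.14 and 9.94 in 0PP and 9.46, 8.97 and 9.09 in NP/Sed (0.76 ± 0.15, adjusted p = 0.0175), and above LP by 0.67 (adjusted p = 0.0369). The growth factor Fgf18 was at 6.82, 7.12 and 7.02 against 6.37, 6.37 and 6.41 (0.61 ± 0.10, adjusted p = 0.00722), and above LP by 0.72 (adjusted p = 0.00176). Ramp1, the co-receptor for calcitonin gene-related peptide, fell from 7.57, 7.85 and 7.73 to 7.23, 6.73 and 7.22 (-0.65 ± 0.14, adjusted p = 0.0242). Cirbp, a cold-inducible RNA-binding protein, differed by -0.49 ± 0.08 (adjusted p = 0.00657).

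Of the probe sets called, 10 had no single gene in the annotation used here, 6 higher and 4 lower. The largest rise was at a probe set of unassigned gene (2.02 ± 0.35, adjusted p = 0.00995), at 7.36, 8.12 and 7.71 against 5.94, 5.79 and 5.41. The study heads its own list of 0PP rises with Thbs1, read from several probe sets. Its average fold change there is larger than the 2.2-fold of the Thbs1 probe set called here. Whether this unassigned probe set reads Thbs1 was not settled here.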
